A study of Mus musculus with 24 samples.

Results

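The mouse genes for antigen presentation by major histocompatibility complex (MHC) class II were followed through 24 SCC7 tumours. SCC7 is a mouse squamous cell carcinoma line. The genes were fixed by name: H2-Aa, H2-Ab1, H2-Eb1, H2-DMa, H2-DMb1, H2-Oa, H2-Ob, Cd74 and Ciita. All 9 were among the 27368 genes of the deposited read count table, and all 9 were among the 16560 genes kept by the filter on low counts. Bulk RNA sequencing compared tumours grown in female C3H mice aged 6 to 8 weeks, each from about 1000000 injected cells and treated at about 300 mm3. Each tumour was made of SCC7 cells carrying an empty vector (NC) or overexpressing miR-21-5p (OE), and received sham treatment, radiation (IR, 8 Gy a day for 3 days), olaparib, a PARP inhibitor (50 mg/kg, given 2 h before radiation where radiation was given), or radiation plus olaparib. The design text also gives an olaparib boost on the day after the last fraction. The 8 groups of 3 tumours were NC sham, NC IR, NC olaparib, NC IR plus olaparib, and the same 4 treatments of OE cells. All groups share the cell line and the host strain, and the labels do not say whether the OE cells were 1 clone.

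Groups were read from the letters of each tumour's identifier. A second reading, from the written batch and treatment labels, put 5 tumours in the same group and 19 in another, and a tag for the cell type reads OE in all 24. The letters were preferred with the p53 targets already seen, so the radiation comparisons are not independent of that choice. Cdkn1a, a p53 target induced by DNA damage, was above every unirradiated tumour in 11 of the 12 tumours irradiated by the letters, and in 2 of the 12 irradiated by the written labels. The exception by the letters was NC IR replicate 1, with 332 reads per 1000000 (CPM) against 184 to 342 CPM without radiation. Replicates 1 to 3 carry numbers in accession order, which pair nothing. Nothing in the labels beyond the tumour identifiers says how separate the samples are, so the p-values measure the spread between these samples.

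MHC class II molecules hold peptides from the endosome for inspection by CD4 T cells. An alpha chain (H2-Aa) and a beta chain (H2-Ab1) form the I-A molecule, and H2-Eb1 is the beta chain of I-E. Cd74, the invariant chain, fills the groove until endosomal proteases cut it down to a short peptide. DM (H2-DMa with H2-DMb1) exchanges that peptide for others, and DO (H2-Oa with H2-Ob) inhibits DM, mainly in B cells and some dendritic cells. Ciita is the coactivator that switches on the presenting chains, Cd74 and DM, in professional presenting cells and, after interferon gamma, in many others. In tumours, macrophages and dendritic cells are the usual carriers.

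Ciita works through factors bound to an X box and a Y box close to the start of each class II gene, and these boxes are shown because the DO genes and the chains that present peptide both carry them. The sequences are the RefSeq promoters of GRCm38.p6, which come from C57BL/6J and not from C3H. They cover bases -110 to -31 before the annotated start, 5′ to 3′ on the gene's strand. Capitals mark GCAAC, the X box core, and GATTGG, the Y box (an inverted CCAAT).
H2-Aa: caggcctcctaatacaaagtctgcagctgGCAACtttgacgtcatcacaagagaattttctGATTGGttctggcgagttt
H2-Eb1: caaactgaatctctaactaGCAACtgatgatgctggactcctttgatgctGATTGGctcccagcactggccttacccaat
H2-Oa: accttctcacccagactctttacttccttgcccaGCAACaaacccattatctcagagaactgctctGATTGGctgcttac
H2-Ob: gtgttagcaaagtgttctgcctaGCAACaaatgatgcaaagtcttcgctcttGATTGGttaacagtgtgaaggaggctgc
H2-DMb1: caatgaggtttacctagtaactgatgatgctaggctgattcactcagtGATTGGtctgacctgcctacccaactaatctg

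The H2-Aa stretch lies at chr17:34287854-34287933 on the minus strand. The others lie on the plus strand, at chr17:34305757-34305836 for H2-Eb1, chr17:34092269-34092348 for H2-Oa, chr17:34238795-34238874 for H2-Ob and chr17:34153081-34153160 for H2-DMb1. GCAAC began at base -81 in H2-Aa, -91 in H2-Eb1, -76 in H2-Oa and -87 in H2-Ob, and GATTGG followed on the same strand 32, 31, 32 and 29 bases further on. H2-DMb1 had GATTGG at -62 and no exact GCAAC in its window. It reads gtaactgatgatgct where H2-Eb1 reads GCAACtgatgatgct, so a search for exact letters cannot tell whether an X box is lacking. Of 27025 genes with a promoter window of 250 bases before to 50 after the start, 38.6% held GCAAC on either strand, 18.2% held GATTGG, and 0.222% held GCAAC followed by GATTGG on the same strand with starts 25 to 35 bases apart, a distance set after these promoters were seen. RefSeq windows matched 6 of the 9 genes, and 4 of the 6 held the pair in these exact letters (H2-DMa and H2-DMb1 did not). A match of letters is a description and not evidence of binding, and a missing match is not evidence that a box is absent.

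Library totals ran from 37099055 to 40004502 reads. The read share of the fibroblast markers reached 10.2% in OE IR plus olaparib replicate 3, against at most 0.614% in unirradiated tumours, and that of the skeletal muscle markers reached 1.32% in NC IR replicate 3. NC sham replicate 3 had the highest macrophage marker share among unirradiated tumours, at 1.27%. Fits without these 3 tumours are given beside several of the results below. Squamous keratins were low, with Krt5 at 0 to 107 CPM and Krt14 at 0 to 149 CPM over all tumours, so the labelled cell type was not clear from them.

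Per kilobase of exon, Cd74 had the highest level of the set, with a median of 1644 CPM per kb over the 24 tumours. H2-Eb1 (329 CPM per kb), H2-Aa (181) and H2-Ab1 (87.0) followed, then H2-DMa (23.6) and H2-DMb1 (23.1). Ciita lay at a median of 5.27 CPM per kb, and the DO chains were the lowest, at 0.929 for H2-Oa and 0.459 for H2-Ob. The lengths are unions of all annotated exons, and parts of this order depend on them. By median CPM without lengths, H2-Aa (687) was above H2-Eb1 (640), Ciita (50.3) above H2-DMb1 (38.7) and H2-Ob (2.47) above H2-Oa (1.31). On both scales the invariant chain was the most abundant transcript and the inhibitor of DM the scarcest. Every gene varied widely between tumours. The highest tumour exceeded the lowest 37.5-fold for H2-Aa, 29.4-fold for Cd74, 43.1-fold for Ciita and 154-fold for H2-Ob, and 9.63-fold for H2-DMa, the steadiest of the set.

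**Figure D1:**
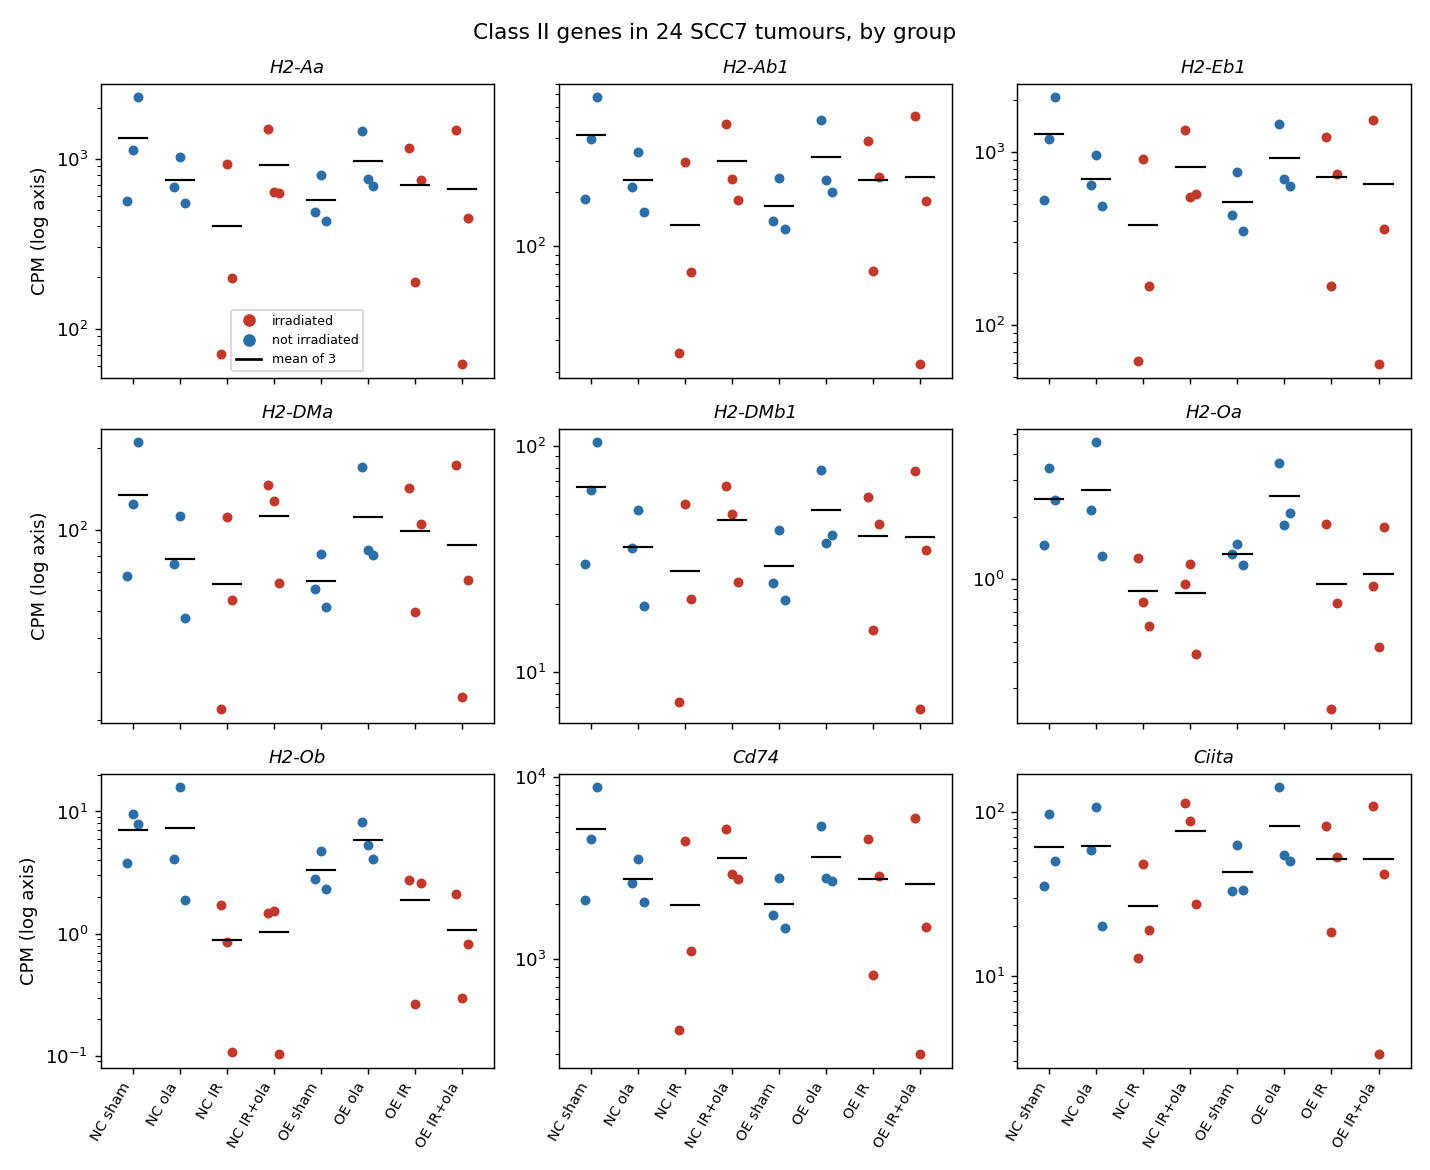
Level in CPM (log axis) of the 9 class II genes in each tumour, by group, with the arithmetic mean of 3 as a bar; red tumours were irradiated by their identifier letters and blue were not. In H2-Ob the irradiated tumours reach at most 2.75 CPM while the unirradiated ones start at 1.89 CPM, and for H2-Aa the 2 lowest tumours, at 61.6 and 70.7 CPM, sit in different irradiated groups.

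The chains that present peptide did not pass the test under radiation. H2-Aa (chr17:34282744-34287823), the I-A alpha chain, stood at 560.2, 1125 and 2308 CPM in NC sham and at 70.7, 936 and 197 CPM in NC IR, groups that overlapped. In NC olaparib it stood at 679, 1023 and 547 CPM, and in NC IR plus olaparib at 1491, 639 and 627 CPM. In OE cells the values were 487, 797 and 429 CPM in sham and 1160, 188 and 749.4 CPM in IR. The remaining OE groups stood at 1463, 760.4 and 694 CPM under olaparib and at 1476, 61.6 and 449 CPM under radiation plus olaparib. Of the 12 irradiated tumours 4 were below every unirradiated tumour and 0 were above every one, and the highest unirradiated tumour, NC sham replicate 3, was above all 12. The mean was 670 ± 511 CPM (SD, n = 12) in irradiated tumours and 906 ± 533 CPM (n = 12) in unirradiated tumours. The average over the 4 radiation comparisons was -0.42 ± 0.45 on the log2 scale (SE, quasi-likelihood test of edgeR, adjusted p = 0.472), with a 95% interval of -1.37 to 0.52.

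H2-Ab1, the I-A beta chain (chr17:34263227-34269418), and H2-Eb1, the I-E beta chain (chr17:34305867-34316674), varied closely with H2-Aa. With radiation H2-Ab1 ranged from 22.1 to 532 CPM and without it from 126 to 678 CPM, and the averaged estimate was -0.30 ± 0.44 on the log2 scale (edgeR adjusted p = 0.611). H2-Eb1 ranged from 59.2 to 1541 CPM and from 349 to 2083 CPM, with -0.38 ± 0.47 (adjusted p = 0.539). The reads of C3H class II alleles were aligned to the C57BL/6J reference, and how many failed to align is unknown. Cd74, the invariant chain on chromosome 18, stood at 2093, 4570 and 8795 CPM in NC sham and at 406, 4430 and 1102 CPM in NC IR. Its 12 irradiated tumours ran from 299.5 to 5913 CPM and its unirradiated ones from 1474 to 8795 CPM, and the averaged log2 fold change was -0.26 ± 0.43 (adjusted p = 0.659). Without the 3 tumours of unlike composition the estimates were -0.14 (H2-Aa), -0.07 (H2-Ab1), -0.10 (H2-Eb1) and 0.02 (Cd74).

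The 2 DM chains, which load peptide, were likewise uncalled. H2-DMa (chr17:34119693-34139101) averaged 90.5 ± 50.5 CPM with radiation and 97.1 ± 49.5 CPM without (SD, n = 12 each), and the edgeR estimate was -0.07 ± 0.32 on the log2 scale (adjusted p = 0.873). H2-DMb1 (chr17:34153191-34160229) averaged 38.7 ± 23.7 and 45.8 ± 25.3 CPM, with -0.20 ± 0.37 (adjusted p = 0.702). H2-DMb1 has a close copy, H2-DMb2, with 94.1% identity over 1219 aligned transcript bases, so reads could be split between them. H2-DMb2 was at -0.25 ± 0.35 (adjusted p = 0.593), and its reads per H2-DMb1 read stayed between 0.63 and 0.906 over all tumours. The H2-DMa estimate lay on either side of 0, from -0.31 to 0.04, as single tumours were left out.

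The 2 DO chains fell. These 2 of 9 genes passed the test in the averaged radiation comparison, in which 39.1% of all tested genes were called, 17.5% lower and 21.7% higher. A count of 2 lower among 9 is close to that background, and 0 were higher. H2-Ob (chr17:34238905-34245908), the DO beta chain, had 3.81, 9.52 and 7.92 CPM in NC sham and 1.72, 0.859 and 0.108 CPM in NC IR. In NC olaparib it had 4.09, 15.9 and 1.89 CPM, and in NC IR plus olaparib 1.47, 1.55 and 0.103 CPM. OE sham had 2.79, 4.77 and 2.31 CPM and OE IR 2.75, 0.264 and 2.62 CPM. OE olaparib had 8.14, 5.35 and 4.09 CPM and OE IR plus olaparib 2.10, 0.298 and 0.823 CPM. Irradiated tumours were the low ones: 9 of 12 were below every unirradiated tumour and all 12 were below the unirradiated median. The mean was 1.22 ± 0.95 CPM (SD, n = 12) against 5.88 ± 3.97 CPM (n = 12), and H2-Ob fell by 2.26 ± 0.51 on the log2 scale (4.79-fold, 95% interval -3.33 to -1.19, edgeR adjusted p = 0.00279). Depth was thin at the bottom of this range, where 4 reads stood behind each of the 2 lowest values.

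H2-Oa (chr17:34092379-34095234), the DO alpha chain, had 1.46, 3.41 and 2.41 CPM in NC sham and 1.26, 0.781 and 0.596 CPM in NC IR. NC olaparib had 2.16, 4.56 and 1.30 CPM and NC IR plus olaparib 0.947, 1.18 and 0.438 CPM. In OE cells, sham tumours had 1.32, 1.48 and 1.17 CPM and IR tumours 1.85, 0.238 and 0.770 CPM. OE olaparib had 3.60, 1.83 and 2.09 CPM, against 0.928, 0.471 and 1.77 CPM with radiation added. Here 8 of 12 irradiated tumours were below every unirradiated one, and all 12 were below the unirradiated median. The mean was 0.936 ± 0.506 CPM against 2.23 ± 1.08 CPM (SD, n = 12 each), and H2-Oa fell by 1.204 ± 0.32 (2.31-fold, 95% interval -1.87 to -0.53, edgeR adjusted p = 0.00731). In bulk tumours fewer cells of a type and less RNA per cell cannot be told apart.

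Within single strata no member passed the edgeR test, and 2, 0, 2 and 1 of the 9 had an unadjusted p under 0.05 in NC, in OE, in NC under olaparib and in OE under olaparib. At that threshold the shares of all genes were 29.6%, 14.8%, 22.1% and 28.3%. In the radiation comparison of NC tumours 10.0% of all genes were called, in OE 0.248%, in NC under olaparib 1.46% and in OE under olaparib 6.78%. H2-Ob was at -2.97 ± 1.05, -0.81 ± 0.98, -2.81 ± 1.04 and -2.45 ± 1.03 in that order, with edgeR adjusted p of 0.0719, 0.778, 0.135 and 0.133. H2-Oa was at -1.46 ± 0.64, -0.48 ± 0.64, -1.64 ± 0.65 and -1.25 ± 0.64. For both DO chains the 3 irradiated tumours were below all 3 unirradiated tumours in every stratum except sham against IR of OE cells. That arrangement was found in 14.8% of all genes in NC, 17.8% in OE, 17.6% in NC under olaparib and 13.8% in OE under olaparib. DESeq2 called H2-Ob in NC and in NC under olaparib, where it called 17.8% and 9.73% of the genes it gave an adjusted p. The other 7 genes overlapped in all 4 strata, and their log2 fold changes ran from -1.74 to -1.09 in NC, from 0.26 to 0.62 in OE, from 0.24 to 0.53 in NC under olaparib and from -0.68 to -0.35 in OE under olaparib. Their estimates thus had opposite signs in different strata, none past the threshold. The difference in the radiation effect between OE and NC cells was called for 1 gene of all tested (0.00604%) and for no member, with H2-Ob at 1.26 ± 0.98 (adjusted p = 0.651). The difference between tumours with and without olaparib was called for 0% of genes by edgeR (588 genes at an unadjusted p under 0.05, 7 by DESeq2), and H2-Ob was at -0.74 ± 0.98 (adjusted p = 0.987).

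**Figure D2:**
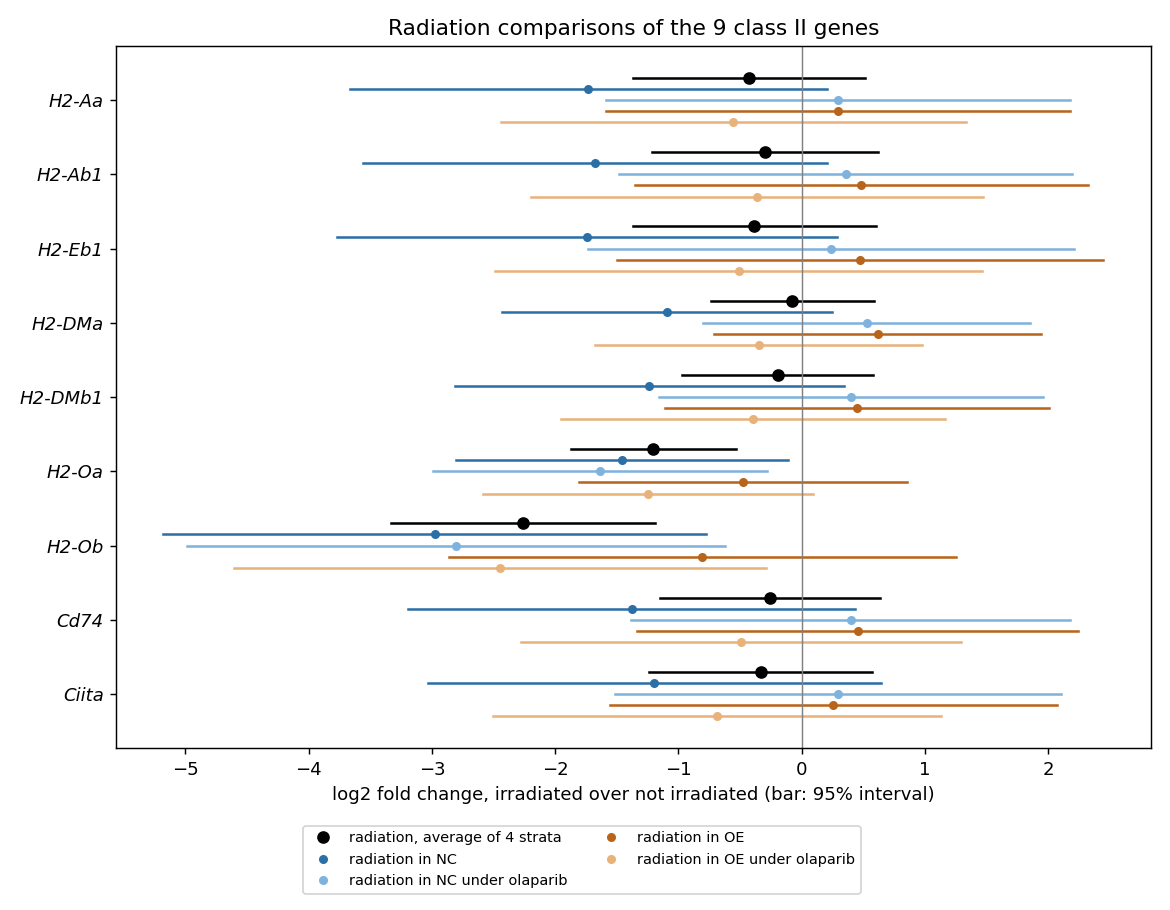
Log2 fold changes of irradiated over unirradiated tumours for each of the 9 class II genes, as the average of 4 strata (black) and in each stratum, with 95% intervals of the edgeR fit. In the average, the intervals of H2-Oa and H2-Ob end below 0, at -0.53 and -1.19, and the other 7 span 0.

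The written labels gave another picture. Under them no member was called in the averaged radiation comparison, 0 had an unadjusted p under 0.05, and 1 gene of all tested was called (5099 at an unadjusted p under 0.05). H2-Ob was at -0.20 ± 0.47 and H2-Oa at 0.23 ± 0.31 (edgeR adjusted p = 0.797 and 0.621). The fall of DO thus depends on reading the groups from the identifier letters. Under the letters it was called without each of the 24 tumours in turn, with H2-Ob between -2.49 and -1.94 and H2-Oa between -1.43 and -1.05. Without NC IR replicate 1, the tumour with low Cdkn1a, H2-Ob was at -2.49 and H2-Oa at -1.30. Without the 3 tumours of unlike composition, H2-Ob was at -2.08 (adjusted p = 0.00688) and H2-Oa at -1.31 (adjusted p = 0.0084).

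Set against DM, the complex it inhibits, DO was scarcer in irradiated tumours. H2-Ob reads per 100 H2-DMb1 reads were 12.7, 14.9 and 7.61 in NC sham, 11.5, 30.5 and 9.63 in NC olaparib, 11.2, 11.3 and 11.1 in OE sham, and 10.4, 14.4 and 10.2 in OE olaparib. In the irradiated groups they were 23.2, 1.55 and 0.516 in NC IR, 2.21, 3.09 and 0.412 in NC IR plus olaparib, 4.61, 1.71 and 5.81 in OE IR, and 2.71, 4.33 and 2.37 in OE IR plus olaparib. In 11 of 12 irradiated tumours the ratio was below that of every unirradiated tumour. The exception was again NC IR replicate 1. The median was 2.54 in irradiated and 11.3 in unirradiated tumours. H2-Oa reads per 100 H2-DMa reads had medians of 0.832 and 2.22, and 8 of 12 irradiated tumours were below every unirradiated one. A difference between the fall of DO and the estimate for DM was not tested.

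**Figure D3:**
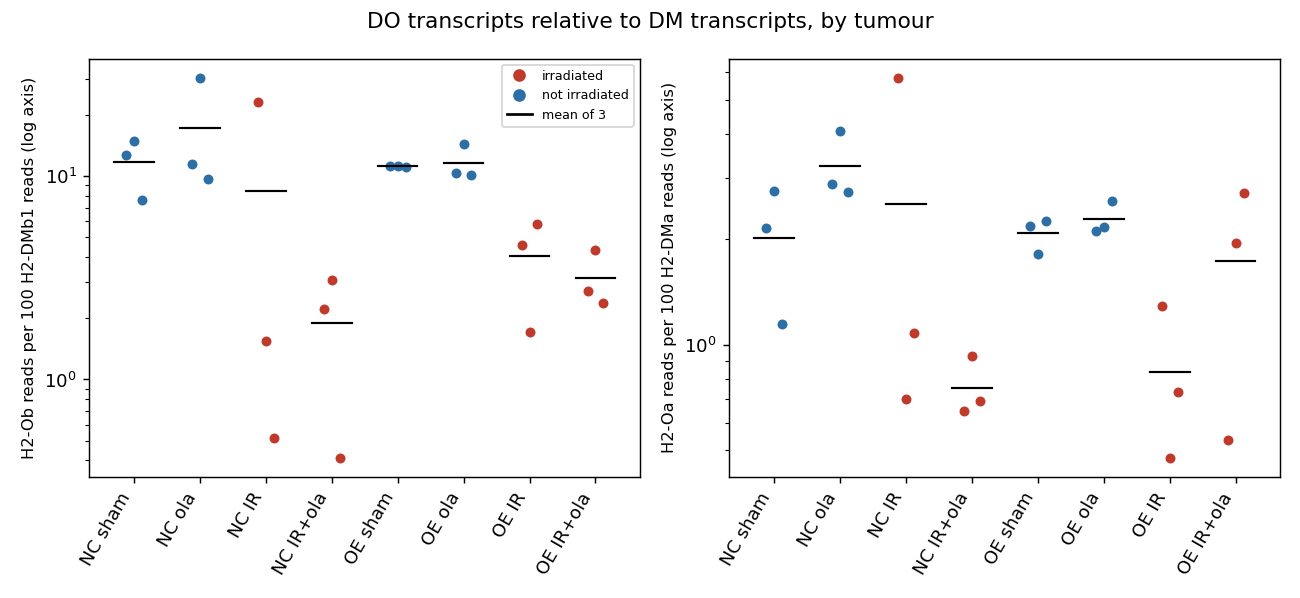
Reads of the DO chains per 100 reads of the DM chains in each tumour (log axes), H2-Ob over H2-DMb1 on the left and H2-Oa over H2-DMa on the right, with the mean of 3 as a bar. On the left 11 of 12 irradiated tumours lie between 0.412 and 5.81, below the lowest unirradiated tumour at 7.61, and NC IR replicate 1 lies at 23.2.

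Markers of leukocyte types, B cells and dendritic cells among them, were read beside DO. In the averaged radiation comparison 17.5% of all tested genes were lower and 21.7% higher, the background for each count. Of 7 markers of dendritic cells in common and of type 1, 4 were lower and 0 higher in the averaged radiation comparison: Itgae at -1.92 ± 0.31, Clec9a, a receptor for dead cells on type 1 dendritic cells, at -2.23 ± 0.53, Zbtb46 at -0.41 ± 0.11 and Flt3 at -1.77 ± 0.50. Their summed share of reads was 0.0064% to 0.0191% with radiation against 0.0147% to 0.0239% without. The 7 markers of type 2 and migratory dendritic cells went both ways, with 2 higher, Clec10a (1.65 ± 0.37) and Sirpa (0.51 ± 0.15), and 3 lower, Fscn1 (-0.65 ± 0.13), Mgl2 (-1.18 ± 0.36) and Cd209a (-1.31 ± 0.46). Their summed share was 0.063% to 0.103% against 0.0576% to 0.0924%. Of 4 plasmacytoid dendritic cell markers 2 were lower, Siglech at -4.00 ± 0.51 and Ccr9 at -3.34 ± 0.45, and 1, Bst2, was higher. Their summed share was 0.0293% to 0.0524% against 0.0243% to 0.0405%, and Siglech had 0 reads in 1 irradiated tumour. Siglech reached at most 5.57 CPM, in NC olaparib replicate 2. That is a small part of the summed share, which therefore does not follow Siglech. T cell markers were read in the same way. Of 7 T cell markers 6 were lower (3 of 7 without the 3 tumours of unlike composition) and 0 higher, with Cd3d at -1.34 ± 0.32 (edgeR adjusted p = 0.00417), and their summed share was 0.00212% to 0.015% against 0.0042% to 0.0337%.

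B cells are the main site of DO in textbooks, and their markers took a small share of reads. Of 9 B cell markers 1 was higher under radiation, Cd22 (1.45 ± 0.27), and 0 were lower, against 21.7% and 17.5% of all tested genes. Their summed share was 0.00188% to 0.00578% in irradiated and 0.000784% to 0.0109% in unirradiated tumours. The highest share belonged to NC olaparib replicate 2, which also had the highest H2-Ob and H2-Oa of all tumours. Without it H2-Ob was at -1.94 (adjusted p = 0.00653) and H2-Oa at -1.05 (adjusted p = 0.0159). The part of dendritic cells, T cells and B cells in the fall of DO was not tested.

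Ciita (chr16:10480014-10531064), the coactivator, was at 35.4, 96.9 and 50.1 CPM in NC sham and at 12.8, 48.1 and 18.9 CPM in NC IR. Over all strata it averaged 51.3 ± 38.2 CPM in irradiated and 62.1 ± 36.0 CPM in unirradiated tumours (SD, n = 12 each), and the edgeR estimate was -0.33 ± 0.43 (adjusted p = 0.565). The lowest tumour, OE IR plus olaparib replicate 2 at 3.30 CPM, was also the lowest in H2-Aa and Cd74. Exons of Ciita overlap those of Dexi, exons of H2-DMa those of Brd2, and exons of H2-Oa those of BC051537, each on the opposite strand, and the strand setting of the counting is not given in the sources used here, so such reads cannot be told apart. Dexi was at 0.33 ± 0.13 (adjusted p = 0.0442) and Brd2 at -0.06 ± 0.06 (adjusted p = 0.468).

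The wider pathway was described by 60 listed genes, of which 59 were tested, 21 were higher and 3 lower in the averaged radiation comparison. Of all tested genes 21.7% were higher and 17.5% lower in that comparison, the background for each list. The median log2 fold change was -0.33 over the 9 members and 0.04 over all tested genes. Of 10 transcription factors that act at class II promoters, 2 were higher and 2 lower, counts close to that background. The 2 that rose, Spi1 (0.60 ± 0.18) and Irf8 (0.51 ± 0.18), are myeloid lineage factors, and the 2 that fell, Nfyb (-0.43 ± 0.07) and Nfyc (-0.40 ± 0.08), are subunits of the Y box factor NF-Y. Without the 3 tumours of unlike composition, 2 were higher and 4 lower. The X box factor subunit Rfx5 was at -0.21 ± 0.08 (adjusted p = 0.0554). Of 8 genes from interferon gamma to Ciita, 0 were called, with Ifng itself at 0.14 ± 0.50 and Irf1 at -0.04 ± 0.17. Of 11 interferon gamma targets outside class II, 3 were higher and 0 lower: Ido1 (1.34 ± 0.28), Cd274, the ligand of PD-1 (1.12 ± 0.27), and Gbp5 (0.99 ± 0.29). A count of 3 higher among 11 is close to that background.

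The endosomal enzymes that cut Cd74 and antigen were mostly higher, in a comparison where 21.7% of all tested genes were higher and 17.5% lower. Of 8, 7 rose and 0 fell: cathepsin D (Ctsd) by 1.45 ± 0.15 on the log2 scale (edgeR adjusted p = 8.185e-06), Ctsb by 1.12 ± 0.17, Ctsl by 0.75 ± 0.13 and Sppl2a, which clears the Cd74 stump, by 0.33 ± 0.07. Ctss, the cathepsin that completes Cd74 cleavage in many presenting cells, averaged 1929 ± 722.3 CPM in irradiated and 991 ± 439 CPM in unirradiated tumours (SD, n = 12 each), and the reductase Ifi30 was at 0.20 ± 0.14 (adjusted p = 0.253). Of 6 genes of class II turnover and its membrane partners 3 were higher, Cd37 (1.05 ± 0.16), Cd53 (0.78 ± 0.15) and Marchf1 (1.14 ± 0.24), the last a ubiquitin ligase that removes class II from the surface. Of 5 receptor and costimulation genes 2 were higher, Cd80 (1.26 ± 0.15) and Cd86 (0.64 ± 0.21), and Cd4 was at 0.09 ± 0.37. Of 5 ligands and co-receptors of Cd74, Mif, its cytokine ligand, fell by 0.78 ± 0.18, while Cd44 (0.63 ± 0.18) and Cxcr2 (2.32 ± 0.65) rose; without the 3 tumours of unlike composition 1 was higher and 1 lower. Of 4 negative regulators of Ciita 2 were higher, Nr1h3 (1.63 ± 0.25) and Il10 (1.48 ± 0.40), and without those 3 tumours 1 was also lower. Of the 2 other class II genes tested, H2-DMb2 and H2-Eb2, 0 were called.

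Macrophage markers moved with these genes, against the same background of 21.7% of all tested genes higher and 17.5% lower. Of 13, 8 were higher and 0 lower, among them Lyz2 (1.03 ± 0.23) and Adgre1 (0.97 ± 0.23), with summed shares of 0.335% to 2% in irradiated and 0.561% to 1.27% in unirradiated tumours. Neutrophil markers were higher in 5 of 5, led by Mmp8 (3.23 ± 0.48). Without the 3 tumours of unlike composition, 9 macrophage markers and 4 neutrophil markers were higher, and 0 of either list were lower. The 4 markers of all leukocytes went both ways, with 1 higher, Laptm5 (1.02 ± 0.19), and 1 lower, Coro1a (-0.46 ± 0.15). Of these 4, 1 was higher and 0 were lower without the 3 tumours of unlike composition. With all tumours kept, Cd52 was at 0.10 ± 0.21 (edgeR adjusted p = 0.729). Ptprc was at 0.17 ± 0.15 (edgeR adjusted p = 0.392), ranging over 111 to 337 CPM with radiation and 156 to 288 CPM without. Ptprc alone therefore does not show that leukocyte content was steady. H2-Aa reads per Ptprc read had a median of 2.46 in irradiated and 3.56 in unirradiated tumours, and 7 of 12 irradiated tumours were below every unirradiated one. The part of macrophage content in the enzyme results was not tested.

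**Figure D4:**
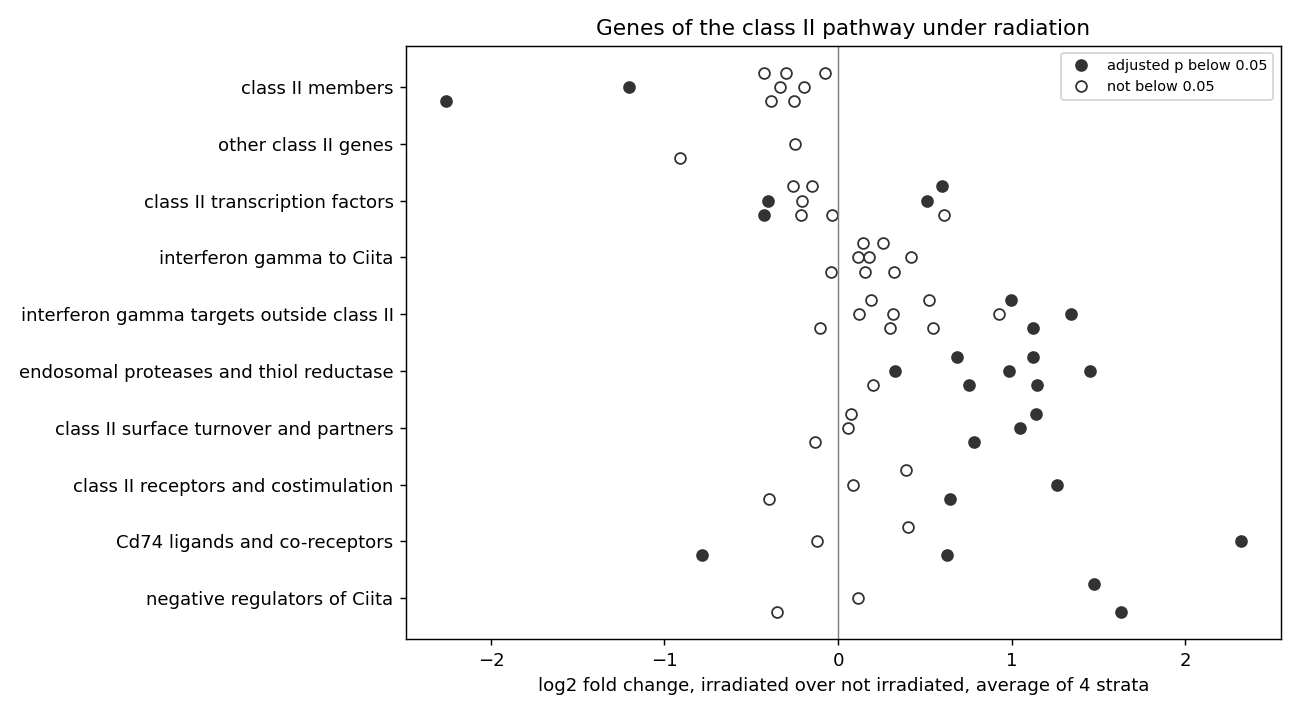
Log2 fold change of irradiated over unirradiated tumours (average of 4 strata) for each tested gene of the class II pathway, by list; filled points have an edgeR adjusted p below 0.05. The only filled points among the 9 members are H2-Ob at -2.26 and H2-Oa at -1.204, and 7 of 8 endosomal enzymes are filled to the right of 0.

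Olaparib and miR-21-5p left no called difference in any member. In the averaged olaparib comparison 0% of all genes passed the edgeR test (1270 genes at an unadjusted p under 0.05, 1 gene by DESeq2), and the same 0% held in each of the 4 single olaparib comparisons (340 to 2219 genes at an unadjusted p under 0.05). DESeq2 called 23 genes in unirradiated NC, 3 in unirradiated OE, 3 in irradiated NC and 4.44% of genes in irradiated OE. The members' averaged log2 fold changes under olaparib ran from 0.07 (H2-Ob) to 0.62 (Ciita), with 0 of 9 at an unadjusted p under 0.05. Their 95% intervals reached as low as -0.96 (H2-Ob) and as high as 1.53 (Ciita). Between OE and NC tumours 0.453% of genes were called on average and 0 members, whose log2 differences, OE minus NC, ran from -0.25 (Cd74) to 0.07 (Ciita) with standard errors of 0.32 to 0.49. Of the single comparisons of OE and NC, 0.0845% of genes were called in irradiated tumours and 0% in sham, under olaparib and under radiation plus olaparib, again with 0 members, by edgeR or DESeq2, and 0 members at an unadjusted p under 0.05. Under these 3 conditions 590 to 2065 genes had an unadjusted p under 0.05 and DESeq2 called 7 to 376. In sham tumours all 9 estimates were below 0, from -1.37 to -0.50, and in irradiated tumours all 9 were above 0, from 0.11 to 1.06. Several of these comparisons share tumours, and most members varied together, so 9 estimates of like sign are not 9 separate observations. The order of the 8 group means was loose: for 7 of the 9 genes every gap between neighbours was within the larger SD. The gaps above the SD were NC sham over OE sham for H2-Oa, and OE olaparib over OE sham and OE sham over OE IR for H2-Ob.

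The members varied together from tumour to tumour. Over 24 tumours, log2 CPM of H2-Aa correlated with that of H2-Eb1 (Pearson r = 0.997, Spearman rho = 0.994), H2-Ab1 (0.994 and 0.983) and Cd74 (0.990 and 0.9748), and with H2-DMb1 (0.959 and 0.960), H2-DMa (0.934 and 0.943) and Ciita (0.881 and 0.855). For these the permutation p was 1e-05 for both coefficients, the smallest that 100000 draws can give, and the adjusted value was 1.3e-05 over 9 relations. The coefficients of DO were lower: H2-Aa correlated with H2-Ob at r = 0.589 and rho = 0.565 (permutation p = 0.0022 and 0.0044, adjusted 0.0025 and 0.005) and with H2-Oa at 0.521 and 0.493 (permutation p = 0.0091 and 0.015, adjusted 0.0091 and 0.015). Between the 2 DO chains r was 0.901 and rho 0.872 (permutation p = 1e-05 for both). Both DO chains were lower in irradiated tumours, so these coefficients include that shared difference. For this pair r was 0.927 within unirradiated and 0.698 within irradiated tumours. Leaving out the 2 tumours farthest from the median of H2-Aa gave r = 0.995 for H2-Eb1, 0.986 for H2-Ab1, 0.980 for Cd74, 0.919 for H2-DMb1, 0.882 for H2-DMa, 0.789 for Ciita, 0.624 for H2-Ob and 0.551 for H2-Oa. For the DO pair, leaving out the 2 tumours farthest in H2-Oa gave 0.867. Points share libraries and their depth.

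Within the 12 unirradiated tumours H2-Aa correlated with H2-Ob at r = 0.771 and with H2-Oa at 0.716, and within the 12 irradiated tumours at 0.483 and 0.330. Ciita went the other way, with 0.649 and 0.933. For H2-Ab1, H2-Eb1, Cd74, H2-DMa and H2-DMb1 both coefficients were at least 0.966. The differences between these coefficients were not tested. The proportions of the chains were narrow by comparison, with 0.795 to 1.05 H2-Eb1 reads and 0.283 to 0.399 H2-Ab1 reads per H2-Aa read over all tumours. Cd74 reads per H2-Aa read lay between 3.44 and 4.06 in unirradiated tumours and between 3.33 and 5.74 in irradiated ones. H2-DMa reads per 100 H2-Aa reads lay between 8.68 and 12.4 in unirradiated tumours, and reached 39.2 in OE IR plus olaparib replicate 2, the tumour with the least H2-Aa.

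**Figure D5:**
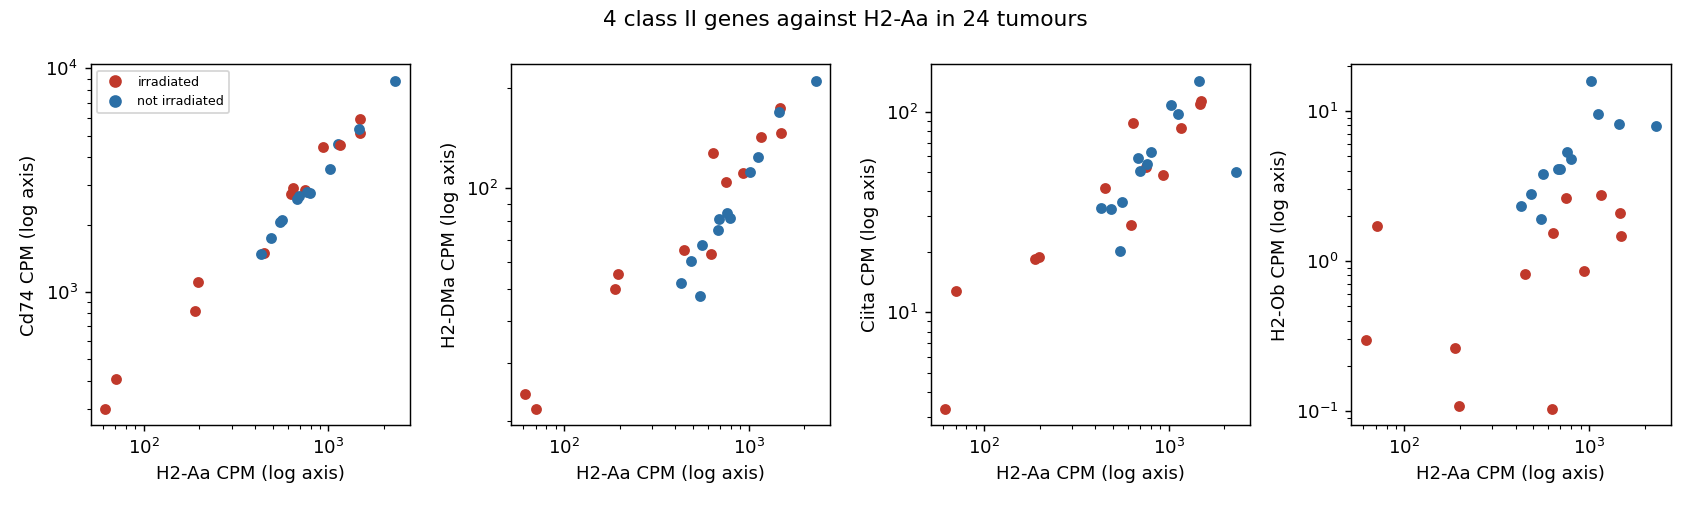
CPM of Cd74, H2-DMa, Ciita and H2-Ob against CPM of H2-Aa in each of 24 tumours (log axes; red irradiated, blue not). Cd74 follows H2-Aa along 1 line (r = 0.990), and for H2-Ob the irradiated tumours lie below the unirradiated ones at like levels of H2-Aa.

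Among genes outside the set with a mean of at least 1 CPM, the pattern most like the mean of H2-Aa, H2-Ab1 and H2-Eb1 over 24 tumours was that of H2-DMb2 (r = 0.967), followed by Plbd1 (0.930), Irag2 (0.878), Tlr12, a Toll-like receptor (0.876), Hrh2, a histamine receptor (0.842), Fnbp1 (0.842), Arhgef6 (0.835), the lectin Clec4b1 (0.832), Arhgap15 (0.830) and Limd2 (0.826). None of these 10 was called under radiation by edgeR, with log2 fold changes from -0.48 to -0.02. Plbd1 ranged from 33.0 to 310 CPM, lowest in OE IR plus olaparib replicate 2 and highest in NC sham replicate 3, the same 2 tumours as for H2-Aa. For H2-Ob, chosen after its values were seen, the most similar genes were Pacsin1 (r = 0.923), the T cell surface protein Cd5 (0.900), the lymphoid factor Ikzf3 (0.887), Tox (0.884), Clec9a (0.881) and Cd3d (0.880). All of these were called lower under radiation by edgeR, from -2.23 (Clec9a) to -1.34 (Cd3d), so the coefficients include that shared difference. Within unirradiated tumours r ran from 0.529 (Clec9a) to 0.888 (Ikzf3), and within irradiated tumours from 0.696 (Ikzf3) to 0.915 (Clec9a). Cd5 stood at 1.67 to 14.9 CPM in unirradiated and 0.248 to 4.91 CPM in irradiated tumours. Likeness over these tumours says nothing of shared control.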

How the data were processed

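Bulk RNA of 24 tumours was analysed from 1 table of whole-number read counts per gene, deposited by the authors. Per the submitters' processing notes, fastp, HISAT2 and HTSeq were used with the mm10 build. Versions, strand setting and annotation are not given in the sources used here. Totals ran from 37099055 to 40004502 reads per tumour. Their number limits precision for H2-Oa and H2-Ob.

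Counts were scaled by TMM and tested with edgeR 4.0.16 (glmQLFit and glmQLFTest, R 4.3.3) in 1 fit over the 8 groups, after filterByExpr kept 16560 of 27368 genes. Calls needed an adjusted p under 0.05 (Benjamini-Hochberg, over all tested genes). Averages weighted the 4 strata equally. CPM used TMM library sizes, and correlations used log2(CPM + 0.5). Lengths are exon unions of GENCODE M21, and gene coordinates and promoters are RefSeq, GRCm38.p6, the same assembly as mm10. The code was tested on simulated data. No 2 replicates agreed within sampling noise, the lowest chi-square per gene being 13. DESeq2 1.42.0, its size factors, no filter, the written labels, an additive model, pairs of groups alone and leaving out each tumour were the alternatives. Leaving out 3 tumours of unlike composition was added after seeing the data.

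Named were all 9 members, up to 4 genes per list by smallest p, Ptprc, Cdkn1a, and the 10 genes most like the presenting chains by Pearson r, without predicted genes or receptor segments. Rfx5, Ifng, Irf1, Ctss, Ifi30, Cd4 and Cd209a were named outside this rule, after their values were seen. The members and lists were chosen with earlier results of these data known.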

Additional observations from a re-analysis of the deposited data

How the results depend on the processing

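The written labels changed most. Under them the count of members called in the averaged radiation comparison went from 2 to 0, and the count for OE minus NC in irradiated tumours went from 0 to 2, with H2-Ob at 4.76 and H2-Oa at 2.45 on the log2 scale (edgeR adjusted p = 0.0126 and 0.0215), in a comparison that then called 12.7% of all genes. The averaged radiation estimates changed sign to 0.41 (H2-Aa), 0.51 (H2-Ab1), 0.49 (H2-Eb1), 0.33 (H2-DMa), 0.41 (H2-DMb1), 0.23 (H2-Oa), 0.45 (Cd74) and 0.60 (Ciita), and H2-Ob, at -0.20, was no longer called. The averaged OE minus NC estimates changed sign to 0.39 (H2-Aa), 0.39 (H2-Ab1), 0.45 (H2-Eb1), 0.32 (H2-DMa), 0.29 (H2-DMb1), 0.42 (H2-Oa), 1.06 (H2-Ob) and 0.25 (Cd74). The cause was not tested. DESeq2 called 1 member, H2-Ob, in each of the radiation comparisons of NC and of NC under olaparib, where edgeR called 0. Leaving out 1 tumour moved the count for radiation in NC within 0 to 1, the 1 being H2-Ob without NC IR replicate 1. Of 280 counts under an alternative, 275 were the same as reported. Most of these counts were 0, many in comparisons where edgeR called 0% of all genes, so their agreement says little. Of 810 member fold changes under an alternative, 719 were the same in sign and call. Of the 27 averaged fold changes of members, 3 were the same under every alternative.

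Estimates that were not called crossed 0 when 1 tumour was left out. For radiation, H2-DMa ran from -0.312 to 0.0426. For olaparib the ranges were -0.0743 to 0.67 (H2-Aa), -0.16 to 0.68 (H2-Eb1), -0.0671 to 0.35 (H2-DMa), -0.0574 to 0.42 (H2-DMb1), -0.25 to 0.29 (H2-Ob) and -0.20 to 0.53 (Cd74). For OE minus NC they were -0.45 to 0.29 (H2-Aa), -0.39 to 0.29 (H2-Ab1), -0.47 to 0.37 (H2-Eb1), -0.28 to 0.13 (H2-DMa), -0.31 to 0.17 (H2-DMb1), -0.36 to 0.0206 (H2-Oa), -0.31 to 0.25 (H2-Ob), -0.61 to 0.12 (Cd74) and -0.22 to 0.27 (Ciita). Without the 3 tumours of unlike composition, radiation gave 0.0941 for H2-DMa and 0.0234 for Cd74, olaparib gave -0.00776 for H2-Ob, and OE minus NC gave 0.0195 (H2-Aa), 0.0295 (H2-Ab1), 0.0575 (H2-Eb1), 0.0924 (H2-DMa) and 0.0208 (H2-DMb1). The additive model gave -0.0171 for H2-Ob under olaparib. H2-Oa and H2-Ob kept their sign and call in the averaged radiation comparison under every alternative except the written labels. Depth limits H2-Oa and H2-Ob most, with 4 to 644 reads a tumour. No paired analysis was possible because the labels give no replicate numbers, and those used here only name samples.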
